A study of Homo sapiens with 6 samples.

Results

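The 34 genes described here are those of the NF-kB pathway and of the inflammatory mediators that it controls. They were chosen by name: 33 had a row among the 18806 gene symbols of the deposited table, and TNF, which had none in the table used, is not analysed here. The cells were Mono-mac-6, a line grown from a human monocytic leukaemia (acute myeloid), and their polyadenylated RNA was sequenced. There were 2 libraries for each of 3 groups: the METTL1 guide sgMETTL1.3, the METTL1 guide sgMETTL1.6 and the control guide sgNS. METTL1 catalyses the methylation of guanosine at N7 in tRNAs. All groups carry the MLL-AF9 fusion and derive from a single clone that makes Cas9, so the values describe 1 clone. All received a guide by lentivirus, were kept in 10 µg/ml of blasticidin together with 200 µg/ml of hygromycin B, and were harvested 8 to 10 days after transduction. The deposited unit is TPM, a share of all transcripts corrected for transcript length, with an equal total in every library. No stimulus is named in the labels, so the levels are those of cells in culture medium.

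NF-kB is a family of transcription factors made from 5 subunits that pair with each other. In resting cells IkB proteins hold the pairs in the cytoplasm. Receptors for TNF and IL-1, and Toll-like receptors, switch on the IKK complex, which marks IkB for destruction and so frees RELA pairs. A slower branch processes the NFKB2 precursor and frees RELB. Many of the genes that NF-kB turns on, such as NFKBIA, TNFAIP3, NFKB2 and RELB, belong to the pathway itself, and in monocytes it drives chemokines and cytokines.

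The targeted gene and the identity of the line were checked first. METTL1 stood at 18.29 and 16.56 TPM in the libraries labelled sgMETTL1.3 and at 11.15 and 11.69 TPM in those labelled sgMETTL1.6, against 15.38 and 13.89 TPM in sgNS libraries. The libraries labelled sgMETTL1.3 therefore showed no loss of METTL1 mRNA (log2 change 0.24, adjusted p = 0.011), and those labelled sgMETTL1.6 were lower (-0.33, adjusted p = 0.0017). Small insertions and deletions left by Cas9 are not read by gene-level TPM, so the value checks neither the cut nor the protein. Directions given for a guide follow the labels of its libraries. Of 12 markers of a monocytic leukaemia line, 9 had a mean of at least 1 TPM, and CD14, CD4 and CSF1R stayed below 1 TPM in every library. All 5 T cell markers were listed at 0, and all 5 B cell markers were below 2 TPM in every library. Of 6 markers of fibroblasts and epithelium 5 were below 2 TPM everywhere, and the 6 summed to 13 to 13.5 TPM in guide libraries and to 17.1 and 17.2 TPM in sgNS libraries. The members differed between replicates by a median of 2.79% (sgMETTL1.3), 4.25% (sgMETTL1.6) and 4.04% (sgNS). The read depth of the libraries is unknown, since TPM does not keep it. The labels do not say whether replicates were separate cultures, so p-values rest on library-to-library spread alone, possibly of technical origin. In bulk RNA, fewer cells that express a gene and less RNA per cell cannot be told apart.

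With both METTL1 guides, the chemokines CXCL8, CXCL2 and CCL3, the cytokine IL1B, ICAM1 and the subunits RELB and NFKB2 were lower. The kinase CHUK, the adaptor TRAF2, RELA and the inhibitors NFKBIB, NFKBIE, TNIP2 and ZC3H12A were slightly higher. For NFKBIB and NFKBIE the rise passed the test over both guides but not with sgMETTL1.6 alone. Of the 34 genes, 31 had a mean of at least 1 TPM and were tested with limma on log2(TPM + 1), a scale that understates the change of low genes. BIRC3 and CCL4 lay under that filter. At an adjusted p under 0.05, 13 of the 31 fell (41.9%) and 10 rose (32.3%), and 8 did not pass. Over all 10911 genes tested, 59.4% passed, 26.8% lower and 32.6% higher, so the share that rose was close to the background and the share that fell was above it. That balance of all genes turned with the scaling, to 3150 higher and 3218 lower with median-ratio scaling and to 3083 and 3242 without ribosomal protein genes, against 3556 and 2928 as deposited. The 31 genes were then 10 higher and 14 lower with median-ratio scaling. The median log2 change was -0.05 over the 31 genes and 0.02 over all genes. The guide libraries lay wholly below both sgNS libraries for 12 of the 31 genes and wholly above them for 9. Of all genes tested 60.2% did not overlap, 27.3% with the guides below and 32.9% above. Log2 changes ranged from -1.26 (CXCL8) to 0.32 (ZC3H12A).

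**Figure D1:**
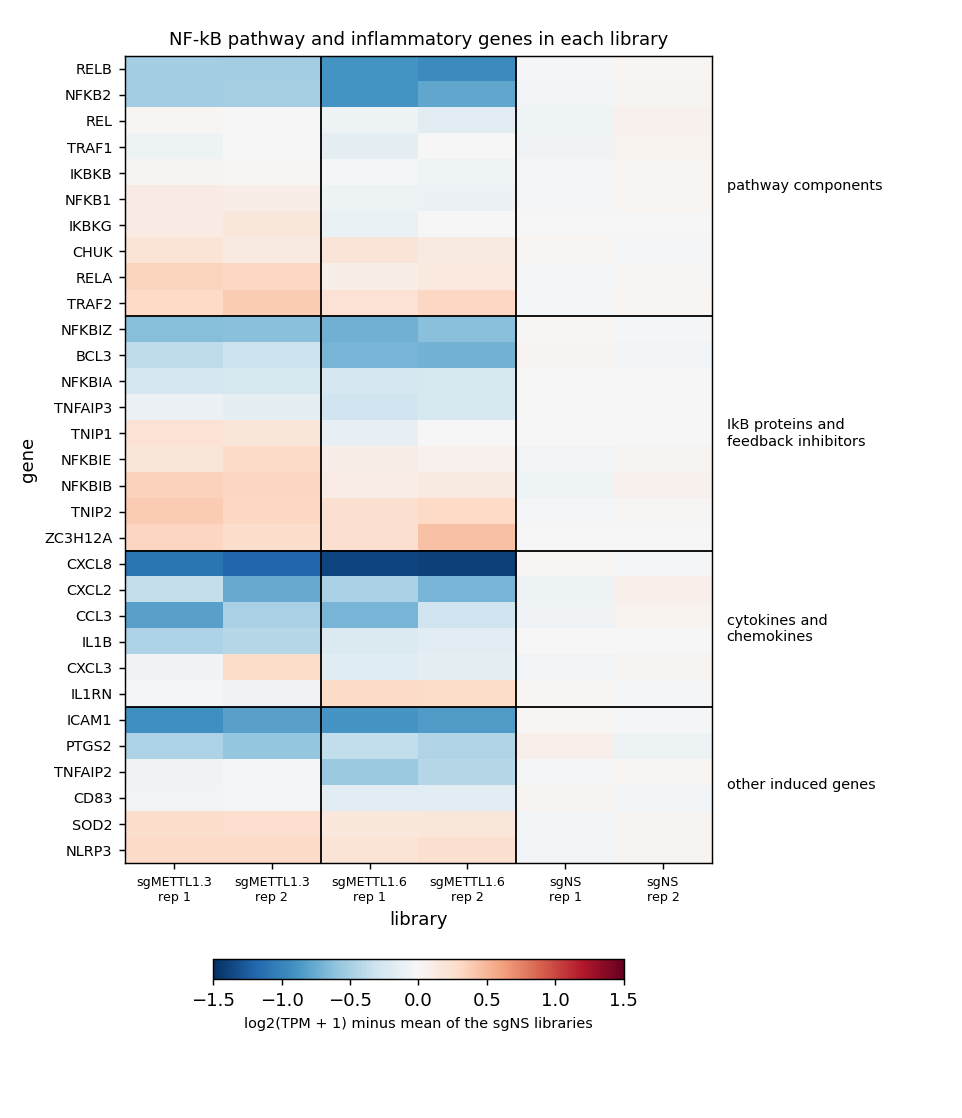
Level of the 31 tested genes in each library, as log2(TPM + 1) minus the mean of the sgNS libraries, with guide libraries on the left and sgNS libraries on the right. Rows are grouped by role; CXCL8, ICAM1, RELB, NFKB2 and NFKBIZ are the deepest blue rows in the guide libraries, and no row is as strongly red.

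The subunits moved in opposite directions. RELB and NFKB2, the pair of the slower branch, fell with both guides. RELA, the main activating subunit of the fast branch, rose slightly. RELB (ENSG00000104856.13, chromosome 19, 45001430 to 45038198 in GRCh38) had 8.17 and 8.09 TPM in sgMETTL1.3 libraries and 6.01 and 5.7 TPM in sgMETTL1.6 libraries, against 11.75 and 12.32 TPM in sgNS libraries. The 3 groups did not overlap, and the sgMETTL1.6 libraries were lowest. The log2 change over both guides was -0.72 ± 0.060 (SE, adjusted p = 4.4e-07). NFKB2, whose precursor p100 also holds RELB in the cytoplasm, had 9.75 and 9.93 TPM with sgMETTL1.3 and 7.29 and 7.95 TPM with sgMETTL1.6, against 13.96 and 14.86 TPM with sgNS. Its groups stood in the same order without overlap (log2 change -0.67, adjusted p = 8.1e-07). RELA had 77.84 and 76.61 TPM with sgMETTL1.3 and 65.48 and 68.32 TPM with sgMETTL1.6, against 61.01 and 62.55 TPM with sgNS. All guide libraries lay above the controls, those of sgMETTL1.3 by more (log2 change over both guides 0.22, adjusted p = 2.4e-04). For sgMETTL1.6 alone the RELA change was 0.11 (adjusted p = 0.041), and 7 of 15 alternative settings ended that call (adjusted p from 0.056 to 0.21). They include leaving out sgNS replicate 1 (log2 change 0.095, adjusted p = 0.2), sgNS replicate 2 (adjusted p = 0.08), sgMETTL1.6 replicate 2 (adjusted p = 0.21) or either sgMETTL1.3 replicate (adjusted p = 0.056).

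NFKB1, the p105 precursor of p50, and REL, the subunit that prevails in lymphoid cells, did not pass over both guides. NFKB1 had 73.47 and 72.04 TPM (sgMETTL1.3) and 63.83 and 63.19 TPM (sgMETTL1.6), against 66.06 and 68.28 TPM (sgNS), so the guides lay on either side of the controls. REL had 13.99 and 13.7 TPM, then 13.01 and 12.22 TPM, against 13.14 and 14.38 TPM in the same order, and its groups overlapped. Within a library, a ratio of 2 transcripts does not depend on how the library was scaled. RELB over RELA was 0.105 and 0.106 in sgMETTL1.3 libraries and 0.0918 and 0.0834 in sgMETTL1.6 libraries, against 0.193 and 0.197 in sgNS libraries. NFKB2 over NFKB1 was 0.133 and 0.138, then 0.114 and 0.126, against 0.211 and 0.218 in the same order. Both ratios were lower in all 4 guide libraries than in either control. They were chosen after the values were seen and carry no test.

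The IKK complex and its adaptors changed little. Of 10 tested pathway components, subunits included, 3 rose and 2 fell, with a median log2 change of 0.01. Over all genes tested 32.6% rose and 26.8% fell. CHUK, the kinase IKK-alpha, had 49.73 and 47.51 TPM (sgMETTL1.3) and 49.32 and 47.17 TPM (sgMETTL1.6), against 43.89 and 42.15 TPM (sgNS), with all guide libraries above the controls. Its log2 change was 0.17 (adjusted p = 0.0038), and it did not pass without sgNS replicate 2 (log2 change 0.14, adjusted p = 0.059). IKBKB, the kinase IKK-beta, stood at 48.71 and 47.78, then 46.42 and 45.24, against 46.34 and 48.08 TPM in the same order, with overlapping groups (log2 change -0.01, adjusted p = 0.91). IKBKG, the regulatory subunit NEMO, ranged from 30 to 36.51 TPM over all libraries and did not pass over both guides (adjusted p = 0.38). IKBKG has a near-identical pseudogene copy, so its level is uncertain. TRAF2, an adaptor of TNF receptors, had 36.93 and 38.86 TPM (sgMETTL1.3) and 34.58 and 37.22 TPM (sgMETTL1.6), against 29.18 and 30.28 TPM (sgNS). The guide libraries were all higher, by a log2 change of 0.30 (adjusted p = 1.0e-04). TRAF1, an inducible relative of TRAF2, ranged from 1.25 to 1.57 TPM, and its groups overlapped. BIRC3, a ubiquitin ligase that binds TRAF2 and is itself an NF-kB target, had 0.9 and 0.79 TPM, then 0.81 and 0.7 TPM, against 1.12 and 1.07 TPM. It was lower in every guide library but was not tested.

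**Figure D2:**
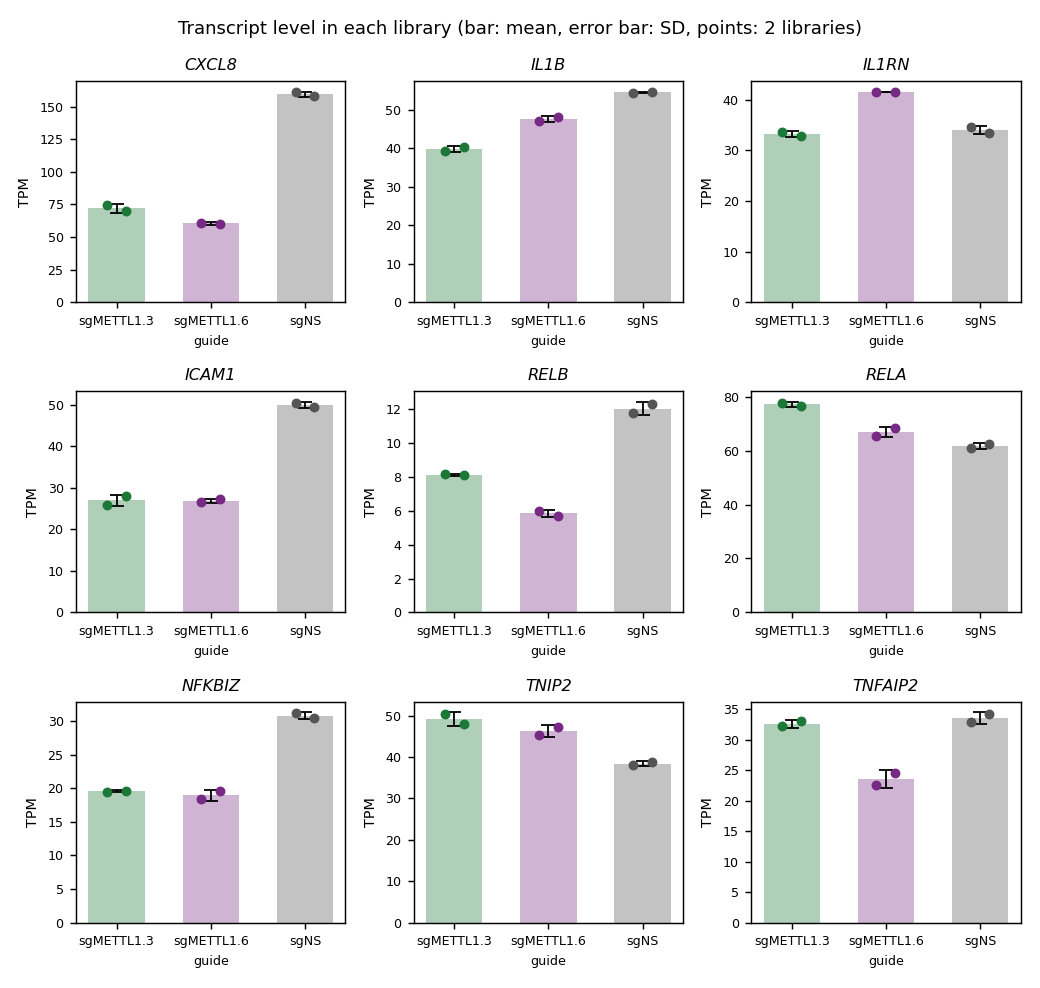
TPM of 9 genes by guide, with METTL1 guides left of sgNS; bars show the mean, error bars the SD and points the 2 libraries. CXCL8, ICAM1, RELB and NFKBIZ are lower with both guides, RELA and TNIP2 are higher, IL1RN is higher and TNFAIP2 lower with sgMETTL1.6.

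Of the 9 IkB proteins and feedback inhibitors, 4 fell and 4 rose (median log2 change 0.07). Among all genes tested 26.8% fell and 32.6% rose. NFKBIZ and BCL3, both atypical nuclear IkB proteins, fell most of the 9. NFKBID, a further protein of that class outside the 34 genes, did not pass over both guides (log2 change 0.19, adjusted p = 0.075) and was higher with sgMETTL1.3 (0.34, adjusted p = 0.011). NFKBIZ, or IkB-zeta, which acts as a co-activator for a second wave of inflammatory genes (ENSG00000144802.11, chromosome 3, 101827991 to 101861022), had 19.44 and 19.65 TPM with sgMETTL1.3 and 18.38 and 19.55 TPM with sgMETTL1.6, against 31.2 and 30.46 TPM with sgNS. The guides overlapped each other and lay well below the controls (log2 change -0.65 ± 0.047, SE, adjusted p = 1.1e-07). BCL3, a nuclear partner of p50 and p52, had 8.43 and 8.81 TPM (sgMETTL1.3) and 6.58 and 6.52 TPM (sgMETTL1.6), against 11.59 and 10.91 TPM (sgNS), without overlap of the 3 groups (log2 change -0.52, adjusted p = 8.2e-06). NFKBIA, or IkB-alpha, the inhibitor that NF-kB re-makes first, had 57.36 and 58.23 TPM and 57.05 and 57.84 TPM with the guides in that order, against 69.15 and 68.23 TPM with sgNS. All guide libraries lay below the controls (log2 change over both -0.25, adjusted p = 5.7e-05; difference between the guides -0.01 ± 0.042, SE). TNFAIP3, the ubiquitin-editing enzyme A20, had 48.39 and 46.43 TPM, then 41.91 and 43.69 TPM, against 51.69 and 51.57 TPM. All guide libraries were lower (log2 change -0.19, adjusted p = 0.0010).

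The other IkB proteins and inhibitors did not fall. NFKBIB, or IkB-beta, had 19.28 and 19.02 TPM (sgMETTL1.3) and 16.16 and 16.57 TPM (sgMETTL1.6), against 14.26 and 15.67 TPM (sgNS), all guide libraries being higher (log2 change 0.23, adjusted p = 0.0023). NFKBIE, or IkB-epsilon, had 18.07 and 19.5 TPM, then 17.05 and 16.59 TPM, against 15.26 and 16.33 TPM (log2 change 0.16, adjusted p = 0.020). Without sgNS replicate 1 neither passed (NFKBIB log2 change 0.17, adjusted p = 0.059, and NFKBIE 0.12, adjusted p = 0.2), and NFKBIE also lost its call without sgMETTL1.3 replicate 2 (adjusted p = 0.068) or when genes of any level were kept (adjusted p = 0.057). In the main fit, NFKBIB and NFKBIE both passed with sgMETTL1.3 alone (log2 change 0.34 and 0.24, adjusted p = 4.1e-04 and 0.0054). With sgMETTL1.6 alone neither did (0.12 and 0.09, adjusted p = 0.11 and 0.27). TNIP2, a partner of A20, had 50.38 and 47.96 TPM with sgMETTL1.3 and 45.37 and 47.34 TPM with sgMETTL1.6, against 37.98 and 38.85 TPM with sgNS. It was higher in all guide libraries (log2 change 0.31, adjusted p = 3.4e-05). Its relative TNIP1 had 63.14 and 62.06 TPM, then 49.95 and 54.65 TPM, against 54.3 and 54.51 TPM. TNIP1 was higher with sgMETTL1.3 (log2 change 0.20, adjusted p = 0.0035) and did not pass over both guides (adjusted p = 0.17), though it did without sgMETTL1.6 replicate 1 (log2 change 0.10, adjusted p = 0.038). ZC3H12A, or Regnase-1, an RNase that degrades cytokine mRNAs, had 6.73 and 6.44 TPM, then 6.35 and 7.39 TPM, against 5.17 and 5.23 TPM. It had the highest log2 change of the 31 genes (0.32 ± 0.072, SE, adjusted p = 0.0021). With sgMETTL1.3 alone the ZC3H12A change was 0.29, and 0.26 without sgMETTL1.3 replicate 1, where the call was lost. With sgMETTL1.6 alone it was 0.34, and 0.25 without sgMETTL1.6 replicate 2, where the call was lost too.

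Among cytokines and chemokines, CXCL8 fell most of the 31 genes. CXCL8, or interleukin 8, which attracts neutrophils (ENSG00000169429.10, chromosome 4, 73740506 to 73743716), had 74.33 and 69.68 TPM in sgMETTL1.3 libraries and 61.05 and 59.8 TPM in sgMETTL1.6 libraries, against 161.17 and 158.22 TPM in sgNS libraries. The group means with the guides were 45.1% and 37.8% of the sgNS mean, in that order, and no libraries overlapped. The log2 change over both guides was -1.26 ± 0.037 (SE, adjusted p = 1.2e-11), with -1.14 for sgMETTL1.3 and -1.39 for sgMETTL1.6. Its upstream sequence is shown with those of CXCL2, CXCL3, ICAM1, NFKBIZ and NFKB1, since all carry a kappaB-like site in this stretch yet differ in how they moved. Each line holds the 250 bases before the RefSeq start in GRCh38.p14, 5′ to 3′ on the gene's strand. Capitals mark the kappaB consensus, its broader form GGNNNTTCC, or the AP-1 motif TGANTCA, on either strand.
CXCL8, chr4:73740319-73740568, plus strand: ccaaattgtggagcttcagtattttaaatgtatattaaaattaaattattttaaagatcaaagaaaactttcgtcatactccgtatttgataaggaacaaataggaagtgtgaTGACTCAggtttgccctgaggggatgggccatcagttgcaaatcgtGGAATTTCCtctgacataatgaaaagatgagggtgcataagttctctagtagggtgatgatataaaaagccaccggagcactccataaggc
CXCL2, chr4:74099196-74099445, minus strand: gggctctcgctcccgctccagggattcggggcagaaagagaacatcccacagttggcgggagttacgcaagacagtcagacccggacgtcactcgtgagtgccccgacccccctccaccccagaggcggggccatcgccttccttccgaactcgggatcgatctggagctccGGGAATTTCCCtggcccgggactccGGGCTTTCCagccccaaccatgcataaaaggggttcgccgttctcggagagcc
CXCL3, chr4:74038690-74038939, minus strand: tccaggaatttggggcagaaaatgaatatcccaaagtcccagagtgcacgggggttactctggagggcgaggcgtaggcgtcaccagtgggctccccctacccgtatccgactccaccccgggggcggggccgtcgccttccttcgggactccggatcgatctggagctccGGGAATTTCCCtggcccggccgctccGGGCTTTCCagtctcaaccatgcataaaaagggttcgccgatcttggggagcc
ICAM1, chr19:10270870-10271119, plus strand: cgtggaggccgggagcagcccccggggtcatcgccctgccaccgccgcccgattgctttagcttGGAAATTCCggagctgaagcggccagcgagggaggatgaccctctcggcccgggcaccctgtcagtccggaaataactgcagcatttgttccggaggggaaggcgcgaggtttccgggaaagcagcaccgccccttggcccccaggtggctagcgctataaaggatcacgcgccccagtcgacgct
NFKBIZ, chr3:101827740-101827989, plus strand: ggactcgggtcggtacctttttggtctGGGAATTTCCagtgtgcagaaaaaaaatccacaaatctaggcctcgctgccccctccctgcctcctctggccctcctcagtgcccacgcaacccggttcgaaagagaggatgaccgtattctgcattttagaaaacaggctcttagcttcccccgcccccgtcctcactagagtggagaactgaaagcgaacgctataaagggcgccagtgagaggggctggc
NFKB1, chr4:102501109-102501358, plus strand: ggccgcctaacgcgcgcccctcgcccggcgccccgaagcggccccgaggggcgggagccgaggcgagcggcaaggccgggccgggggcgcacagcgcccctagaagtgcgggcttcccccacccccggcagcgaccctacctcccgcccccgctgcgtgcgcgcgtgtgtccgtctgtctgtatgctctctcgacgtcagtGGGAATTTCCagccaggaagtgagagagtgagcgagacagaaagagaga

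In these letters the CXCL8 promoter held TGACTCA starting 137 bases and GGAATTTCC starting 91 bases before the start. CXCL2, CXCL3 and NFKBIZ shared the longer form GGGAATTTCC, starting 78, 79 and 223 bases before the start. NFKB1, which like CXCL3 did not pass the test over both guides, had it 49 bases before. ICAM1 held GGAAATTCC starting 186 bases before. Of the 34 genes, 30 had an entry in the promoter table, and 14 of these (46.7%) held GGNNNTTCC in the 250 bases, against 17.1% of 27305 promoters and 20.2% of the 8564 promoters of tested genes. The consensus was in 8 (26.7%), all of which also held the broader form with which it overlaps, against 5.05% of all promoters and 5.84% of those of tested genes. TGANTCA was in 2 (6.67%), CXCL8 and IL1RN, against 6.6% and 3.78% in the same order. Of the 13 tested genes with GGNNNTTCC, 8 fell and 2 rose, and of the 15 tested genes without it, 4 fell and 7 rose. Over all tested genes with a promoter entry, 25.5% of those with the letters fell and 26.7% of those without. In the same order, 34.4% and 32.7% rose. The broader form was chosen after the values were known, and a match is not a bound site.

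CXCL2 and CXCL3 are close relatives of CXCL8 that also attract neutrophils. CXCL2 had 4.11 and 2.89 TPM with sgMETTL1.3 and 3.69 and 3.04 TPM with sgMETTL1.6, against 5.2 and 5.94 TPM with sgNS. All guide libraries were lower, with a wide spread between replicates (log2 change -0.57 ± 0.11, SE, adjusted p = 5.2e-04). CXCL3 had 1.05 and 1.58 TPM, then 0.88 and 0.95 TPM, against 1.08 and 1.19 TPM, and its groups overlapped (log2 change -0.02, adjusted p = 0.87). Their promoters were 73.3% identical over 266 aligned positions, and both held GGGAATTTCC. CCL3, or MIP-1 alpha, which attracts monocytes, had 3.44 and 4.55 TPM (sgMETTL1.3) and 3.81 and 5.34 TPM (sgMETTL1.6), against 6.54 and 7.06 TPM (sgNS), all guide libraries being lower (log2 change -0.57, adjusted p = 6.5e-04). Its near-identical copy CCL3L1 had 1.52 and 0 TPM, then 2.24 and 0 TPM, against 5.34 and 3.63 TPM, and CCL3L3 stood at 0 in 3 of these 6 libraries. RSEM can move reads between such copies, so CCL3, and likewise CXCL2 and CXCL3, are uncertain. With sgMETTL1.6 alone the CCL3 change was -0.50 (adjusted p = 0.006). That call was lost when genes of any level were kept (adjusted p = 0.078). It was also lost without sgMETTL1.6 replicate 1 (log2 change -0.30). CCL4, or MIP-1 beta, did not exceed 0.13 TPM in any library.

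The interleukin 1 genes behaved differently with each guide. IL1B, the pro-inflammatory cytokine, had 39.28 and 40.33 TPM with sgMETTL1.3 and 46.97 and 48.17 TPM with sgMETTL1.6, against 54.37 and 54.68 TPM with sgNS. The 3 groups did not overlap, and sgMETTL1.3 was lowest (log2 change over both guides -0.32, adjusted p = 1.2e-05). IL1RN, which blocks the IL-1 receptor, had 33.62 and 32.79 TPM with sgMETTL1.3 and 41.61 and 41.48 TPM with sgMETTL1.6, against 34.56 and 33.41 TPM with sgNS. The sgMETTL1.6 libraries stood above all others, while those of sgMETTL1.3 overlapped the controls. Its log2 change was 0.13 over both guides (adjusted p = 0.019). That call was lost without ribosomal protein genes (adjusted p = 0.061), without sgNS replicate 2 (log2 change 0.10, adjusted p = 0.16) and without sgMETTL1.3 replicate 1 (adjusted p = 0.051). With sgMETTL1.6 alone it was 0.28 (adjusted p = 2.9e-04), which passed under every alternative run. The ratio of IL1RN to IL1B, chosen after the values were seen, was 0.856 and 0.813 with sgMETTL1.3 and 0.886 and 0.861 with sgMETTL1.6, against 0.636 and 0.611 with sgNS. It was higher in all guide libraries, with sgMETTL1.6 slightly above sgMETTL1.3.

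Of the 6 other induced genes, 3 fell and 2 rose, where 26.8% of all genes tested fell and 32.6% rose. ICAM1, the adhesion molecule to which leukocyte integrins bind (ENSG00000090339.8, chromosome 19, 10270835 to 10286615), had 25.96 and 27.98 TPM in sgMETTL1.3 libraries and 26.59 and 27.28 TPM in sgMETTL1.6 libraries, against 50.51 and 49.44 TPM in sgNS libraries. The guide means were 54.0% and 53.9% of the control mean. The log2 change was -0.87 ± 0.045 (SE, adjusted p = 4.4e-09). PTGS2, or cyclooxygenase 2, which makes prostaglandins, had 7.88 and 7.2 TPM, then 8.43 and 7.92 TPM, against 11.89 and 10.59 TPM, without overlap of guides and controls (log2 change -0.47, adjusted p = 6.0e-05). TNFAIP2, or M-Sec, which helps form membrane nanotubes between cells, had 32.21 and 33.12 TPM with sgMETTL1.3 and 22.58 and 24.64 TPM with sgMETTL1.6, against 32.89 and 34.28 TPM with sgNS. The sgMETTL1.6 libraries were low, and the sgMETTL1.3 libraries overlapped the controls. Its log2 change was -0.27 over both guides (adjusted p = 3.8e-04), -0.49 with sgMETTL1.6 (adjusted p = 1.0e-05) and -0.04 with sgMETTL1.3 (adjusted p = 0.57).

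CD83, a marker of mature dendritic cells, had 25.98 and 26.18 TPM (sgMETTL1.3) and 23.73 and 23.55 TPM (sgMETTL1.6), against 27.37 and 25.98 TPM (sgNS), and did not pass over both guides (log2 change -0.10, adjusted p = 0.075). It passed with median-ratio scaling (adjusted p = 0.031), without ribosomal protein genes (adjusted p = 0.026) and with the replicate number as a block (adjusted p = 0.046). SOD2, the mitochondrial superoxide dismutase, had 37.25 and 36.93 TPM, then 34.62 and 34.81 TPM, against 29.79 and 31.83 TPM (log2 change 0.21, adjusted p = 8.8e-04). NLRP3, the sensor of the inflammasome that activates caspase 1, had 106.71 and 106.51 TPM, then 100.27 and 102.85 TPM, against 84.76 and 89.6 TPM (log2 change 0.25, adjusted p = 4.5e-05). For SOD2 and NLRP3 every guide library lay above the controls. Exons of CHUK, NFKBIB and SOD2 overlap those of ERLIN1, SIRT2 and WTAP, in that order, which also have rows in the table. Whether counting used strand is not given in the sources used here, so these values are uncertain.

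Set side by side, cytokines and chemokines lay lower than the rest. Of the 6 tested, 4 fell and 1 rose, with a median log2 change of -0.45, and of the other 25 tested genes 9 fell and 9 rose, with a median of -0.01. Over all genes tested 26.8% fell and 32.6% rose, and the median was 0.02. With sgMETTL1.3 alone the medians were -0.50 and 0.03, and with sgMETTL1.6 alone -0.35 and -0.07. These groups hold few genes and are described without a test. Both guides are set against the same sgNS libraries, so their changes share those controls. With sgMETTL1.3, 12 of the 31 genes rose and 12 fell, where 58.5% of all genes tested passed, 34.3% higher and 24.2% lower (3743 and 2642 genes). All genes were 3080 higher and 3182 lower with median-ratio scaling and 3087 and 3116 without ribosomal protein genes, and the 31 genes were 10 higher and 12 lower with either. With sgMETTL1.6, 8 rose and 14 fell, where 51% of all genes passed, 25.7% higher and 25.3% lower.

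**Figure D3:**
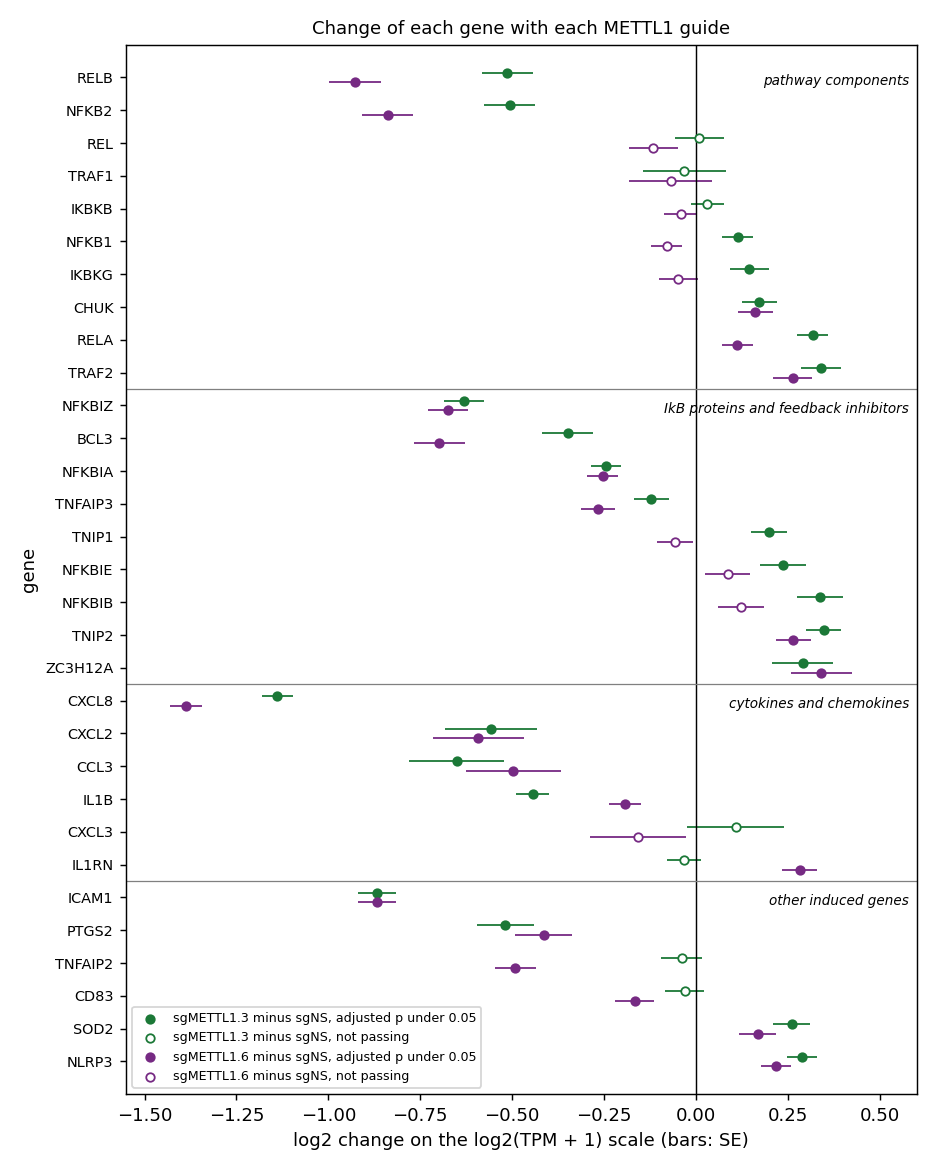
Log2 change of each tested gene with sgMETTL1.3 and with sgMETTL1.6 against sgNS, on the log2(TPM + 1) scale, with SE bars; filled points passed at an adjusted p under 0.05. CXCL8 lies farthest left with each guide, ICAM1 has the same change with both (-0.87), and all other points lie between -1 and 0.35.

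The guides were compared with each other directly, which does not use the sgNS levels. Of the 31 genes, 13 differed, 11 of them lower with sgMETTL1.6 than with sgMETTL1.3 and 2 higher. Over all genes tested 23% differed, 15.8% lower and 7.23% higher (1721 and 789 genes), and the median of all genes was -0.05. The split over all genes was 803 lower and 972 higher after quantile normalization, 809 and 1102 after median-ratio scaling, and 967 and 932 without ribosomal protein genes. Over these 31 genes it was 8 lower and 2 higher with each of these scalings. TNFAIP2 differed most, by -0.45 ± 0.056 (SE, adjusted p = 1.6e-04). RELB differed by -0.41 (adjusted p = 0.0016), BCL3 by -0.35 (adjusted p = 0.0045) and NFKB2 by -0.33 (adjusted p = 0.0056). The subunits RELB and NFKB2, and BCL3, were thus lower with sgMETTL1.6 than with sgMETTL1.3. CXCL8 differed by -0.25 (adjusted p = 0.0018), TNIP1 by -0.26 (adjusted p = 0.0034) and RELA by -0.20 (adjusted p = 0.0055). IL1RN and IL1B were higher with sgMETTL1.6, by 0.31 (adjusted p = 7.5e-04) and 0.25 (adjusted p = 0.0021).

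NFKB1 (-0.19, adjusted p = 0.0065), NFKBIB (-0.21, adjusted p = 0.026), IKBKG (-0.19, adjusted p = 0.021) and TNFAIP3 (-0.14, adjusted p = 0.040) also differed between the guides, but each lost its call under at least 1 alternative. NFKB1 did so without sgMETTL1.3 replicate 1 (adjusted p = 0.052). NFKBIB, IKBKG and TNFAIP3 did so without sgMETTL1.3 replicate 1, sgMETTL1.3 replicate 2 or sgMETTL1.6 replicate 1 (adjusted p from 0.052 to 0.22), and TNFAIP3 also without either sgNS replicate. The median-ratio, quantile, ribosomal and unfiltered alternatives ended the same 3 calls (adjusted p from 0.054 to 0.18). No difference between the guides passed for CXCL2, CCL3, NFKBIZ, NFKBIA or ICAM1. For ICAM1 it was -0.001 ± 0.052 (SE).

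**Figure D4:**
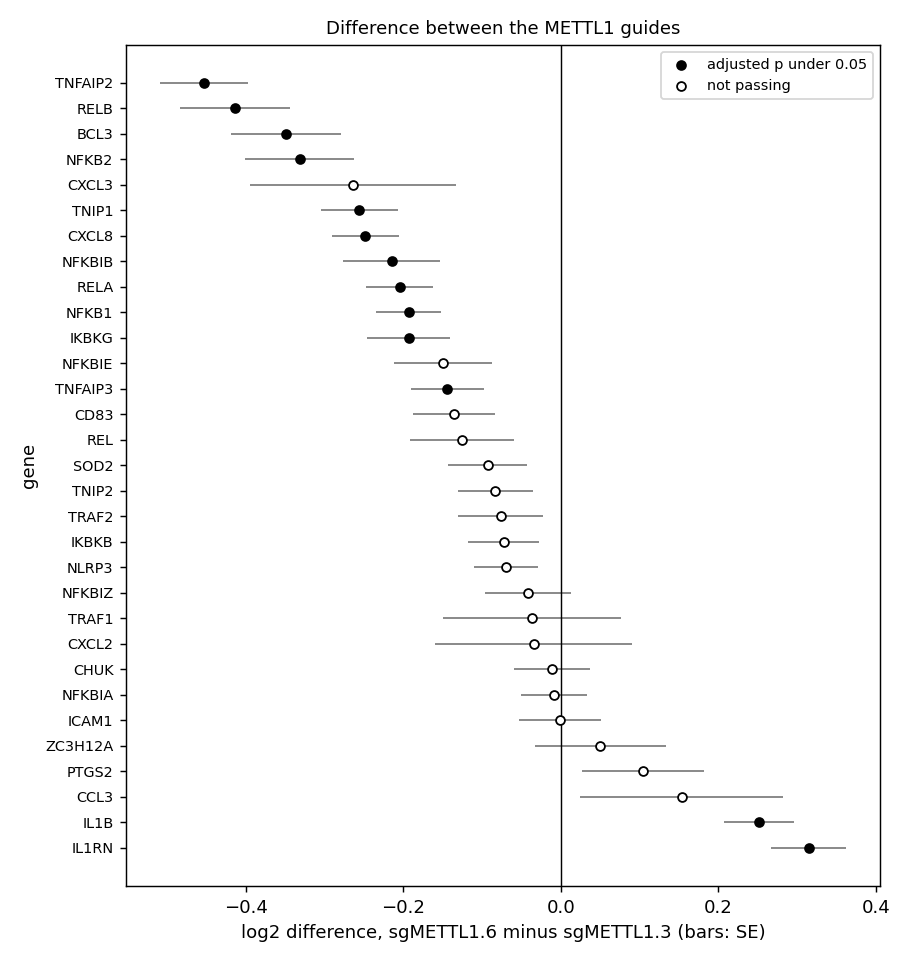
Log2 difference between the METTL1 guides, sgMETTL1.6 minus sgMETTL1.3, for the 31 tested genes, with SE bars; filled points passed at an adjusted p under 0.05. TNFAIP2, RELB, BCL3 and NFKB2 are lower with sgMETTL1.6, and IL1B and IL1RN are the filled points to the right of 0.

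Other genes of the pathway were described from 5 lists. Their counts are over both guides, where 32.6% of all genes tested rose and 26.8% fell. Of 28 tested receptors and adaptors upstream of IKK, 8 rose and 8 fell (median log2 change 0.02). CARD9, the adaptor of C-type lectin receptors, fell by 0.70 on the log2 scale (adjusted p = 8.2e-08). The kinase IRAK1, which relays IL-1 and Toll-like receptor signals, rose by 0.37 (adjusted p = 6.3e-07) and the TNF receptor TNFRSF1B by 0.42 (adjusted p = 9.7e-07). Of 16 tested deubiquitinases and other negative regulators, 4 rose and 5 fell (median 0.02). COMMD1, which promotes breakdown of RELA, rose by 0.40 (adjusted p = 1.6e-06), while ZFP36, which destabilises cytokine mRNAs, fell by 0.26 (adjusted p = 1.2e-05) and NLRC3 fell by 0.37 (adjusted p = 3.7e-04). The list of other induced survival and adhesion genes went both ways, with 6 of 13 higher and 5 lower (median 0.07). IER3 fell by 0.82 (adjusted p = 3.4e-09) and the proteoglycan SDC4 by 0.49 (adjusted p = 4.9e-06), and F3, or tissue factor, rose by 0.69 (adjusted p = 4.8e-07).

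Cytokines outside the 34 genes were mostly low: of 30 listed, 28 had a row and 11 were tested, and IL6, IL10 and IL12B did not exceed 0.12 TPM in any library. Of the 11, 6 fell and 2 rose (median log2 change -0.56), where 26.8% of all genes tested fell and 32.6% rose. CXCL10, an interferon-induced chemokine for T cells, had 4.88 and 4.29 TPM in sgMETTL1.3 libraries and 6.07 and 5.12 TPM in sgMETTL1.6 libraries, against 18.73 and 15.59 TPM in sgNS libraries (log2 change -1.58, adjusted p = 6.8e-09). CXCL11, of the same family, fell by 1.55 (adjusted p = 2.6e-07) and TNFSF13B, the B cell factor BAFF, by 0.59 (adjusted p = 1.4e-07). CXCL11, counted among the 6 and in the median, had 0.48 to 0.8 TPM with the guides against 4.25 and 3.04 TPM with sgNS. It met the filter only through the sgNS libraries. Of 14 tested inflammasome genes, 3 rose and 8 fell (median -0.22), beside the same shares over all genes tested. AIM2, counted among the 8, had 0.61 to 0.85 TPM with the guides against 1.84 and 1.62 TPM with sgNS. Like CXCL11, AIM2 met the filter only through the sgNS libraries. TXNIP, a thioredoxin-binding protein reported to bind NLRP3, fell by 1.06 (adjusted p = 5.1e-12) and CARD8 by 0.40 (adjusted p = 2.6e-05). PYCARD, the adaptor ASC, rose by 0.43 (adjusted p = 3.9e-06), as did NLRP3.

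**Figure D5:**
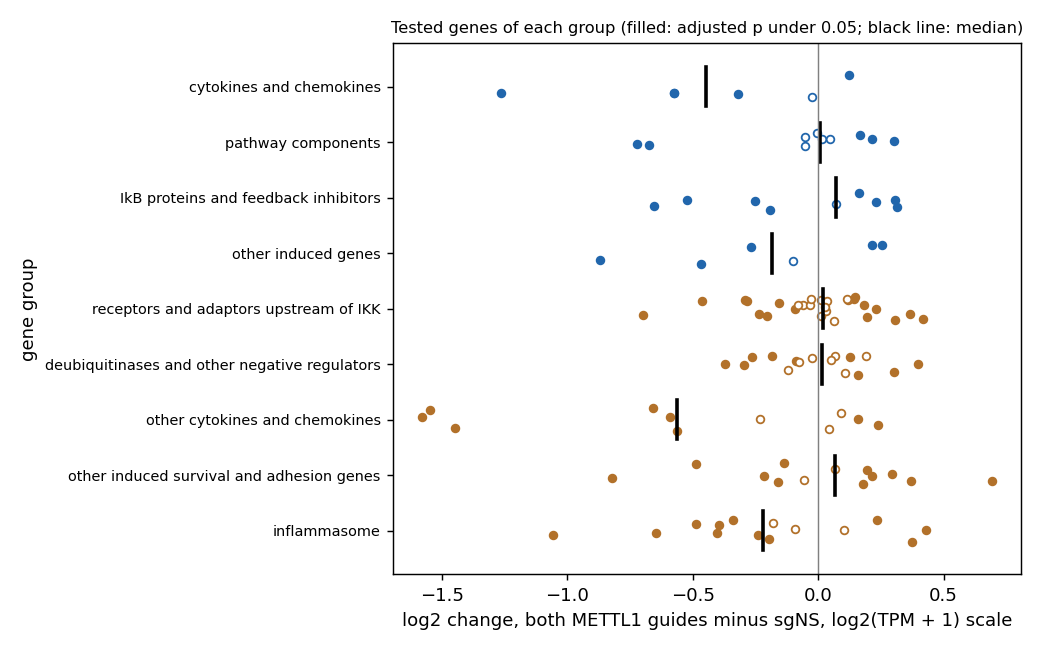
Log2 change over both METTL1 guides against sgNS for the tested genes of 4 role groups (blue, the members) and 5 further pathway lists (brown); filled points passed at an adjusted p under 0.05 and black lines are medians. The medians of the cytokine groups lie at -0.45 and -0.56, and those of the components, inhibitors and upstream adaptors lie near 0. Those of the other induced genes and the inflammasome list lie between, at -0.18 and -0.22.

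Immediate early genes, which respond within minutes to handling and to growth signals and include the AP-1 factors, were mostly lower with the guides. Of 14 tested, 12 fell and 1 rose, with a median log2 change of -0.45, where 26.8% of all genes tested fell and 32.6% rose. Their summed level was 1945 and 1951 TPM in sgMETTL1.3 libraries and 2216 and 2308 TPM in sgMETTL1.6 libraries, against 2725 and 2778 TPM in sgNS libraries. Between the guides, 7 of them were higher and 1 lower with sgMETTL1.6 than with sgMETTL1.3 (median 0.14). Of the 31 genes 2 were higher and 11 lower (median -0.09), and of all genes tested 7.23% were higher and 15.8% lower (median -0.05). With median-ratio scaling 1102 of all genes were higher and 809 lower, and the 31 genes were 2 higher and 8 lower. The immediate early genes were not recomputed under other scalings. Over both guides against sgNS, JUN fell by 0.30 and FOS by 0.64 on the log2 scale. The AP-1 factor FOSL1 was the 1 that rose (0.17, adjusted p = 0.0047), and EGR1 did not pass (-0.06, adjusted p = 0.083). Of the 9 tested markers of the monocytic line, 7 fell and 1 rose, where 26.8% of all genes tested fell and 32.6% rose. The 12 markers summed to 11505 and 11434 TPM with sgMETTL1.3 and 10232 and 9851 TPM with sgMETTL1.6, against 12128 and 11564 TPM with sgNS, and most of each sum was LYZ (lysozyme). Among the rest, the integrin ITGAX fell by 1.19 on the log2 scale (adjusted p = 5.4e-08), the co-stimulatory CD86 by 1.01 (adjusted p = 2.7e-08) and the integrin ITGAM by 0.64 (adjusted p = 4.7e-05). SPI1 was the marker that rose over both guides (0.20, adjusted p = 3.3e-04), though not with sgMETTL1.6 alone (adjusted p = 0.094). CD33 did not pass (0.005, adjusted p = 0.92). The part of either list in the lower level of the chemokines and of ICAM1 was not tested.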

How the data were processed

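A stranded kit for polyadenylated RNA was used, per the labels' protocols. RSEM 1.2.31 and GRCh38 were used, per the submitters' processing notes. Neither aligner nor annotation is named in the sources used here. TPM for 18806 gene symbols was deposited as 1 table. Column names tied its 6 columns to the samples, with 0 left over. The letters EV in each column name are not explained by the labels. TPM has a fixed total, so a rise in a few abundant transcripts lowers the rest. No counting interval can be had without depth.

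The 10911 genes that averaged 1 TPM or more were fitted as log2(TPM + 1) with limma 3.58.1 in R 4.3.3. One linear model held all 3 groups, its variances moderated with a trend (degrees of freedom 3 residual, 9.84 prior). Both METTL1 guides together and each alone were set against sgNS, and sgMETTL1.6 was set against sgMETTL1.3, with Benjamini-Hochberg adjustment over all genes tested and a threshold of 0.05. The procedure was tested on simulated data. That simulation drew independent spread and changed few genes, where here 59.4% were called over both guides, so it does not check these calls. Alternatives were pseudocounts of 0.1 and 5, no filter or a mean of 5 TPM, quantile and median-ratio scaling, no ribosomal protein genes, no trend, the replicate number as a block, and leaving out each library. Gene positions came from GENCODE release 29 (GRCh38) and promoters from RefSeq (GRCh38.p14). All 34 members are named, and of each pathway list the 3 called genes with the lowest p; further genes named were chosen after their values were seen. Members and lists were chosen with earlier results of these data known.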

Additional observations from a re-analysis of the deposited data

Results flagged for a closer look

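For 13 of the 31 tested genes the effects of the METTL1 guides differed, by the test of sgMETTL1.6 against sgMETTL1.3 (limma, adjusted p under 0.05), beside 23% of all genes tested. The log2 difference was -0.45 for TNFAIP2, -0.41 for RELB, -0.35 for BCL3 and -0.33 for NFKB2. It was -0.26 for TNIP1, -0.25 for CXCL8, -0.21 for NFKBIB, -0.20 for RELA, -0.19 for NFKB1, -0.19 for IKBKG and -0.14 for TNFAIP3. IL1RN and IL1B differed the other way, by 0.31 and 0.25. The libraries labelled sgMETTL1.6 and sgMETTL1.3 also differed in METTL1 mRNA, by -0.57 on the same scale (adjusted p = 1.8e-04), and the part of that difference in these values was not tested. With 2 libraries in a group, single libraries were not examined as outliers.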

How the results depend on the processing

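Each of the 31 genes was recomputed in 4 comparisons under 15 alternatives where it was still tested, which gave 1848 results. Of these 1767 kept their call, 75 lost it and 6 gained one, and no called change turned its direction. Pseudocounts of 0.1 and 5 and a mean of at least 5 TPM changed no call. The calls of CXCL8, ICAM1, RELB, NFKB2, NFKBIZ, BCL3, IL1B and NFKBIA, which fell, held in every alternative run. So did those of TNIP2, TRAF2 and NLRP3, which rose, and those of PTGS2 and TNFAIP2. The calls of CXCL2 held wherever it was still tested. The number of these genes called over both guides was 21 to 24 when 1 library was left out (main value 23), 20 to 24 for sgMETTL1.3 (24), 19 to 21 for sgMETTL1.6 (22) and 9 to 13 between the guides (13). Over all genes 4949 to 6456 were called without 1 library, against 6484. Between the guides 2510 of all genes were called, against 1023 with no filter, 1409 with no trend and 1214, 1267 and 1439 without sgMETTL1.3 replicate 2, sgMETTL1.3 replicate 1 and sgMETTL1.6 replicate 1, in that order. The median log2 change of the cytokines and chemokines was -0.50 with a pseudocount of 0.1, -0.31 with one of 5, -0.32 with no filter on low values, where CCL4 entered, and -0.47 to -0.39 without 1 library. That of the other genes was -0.0555 without ribosomal protein genes and -0.0315 to 0.0206 without 1 library, so its sign is not settled. Same-numbered libraries of different groups shared deviations from their group means with correlations of -0.005, 0.21 and 0.15. The labels give no shared day, so whether the numbers pair the samples is not known, and the main fit does not pair them. With the replicate number as a block, 24 of these genes and 6976 of all genes were called over both guides. Between the guides 3615 of all genes were called with that block, against 2510 without it. Among the 31 genes 2 calls changed with it in all 4 comparisons, both for CD83. With 2 libraries a group and no depth, genes near 1 TPM such as CXCL3 and TRAF1 are measured least well.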
